A study of Mus musculus with 15 samples.

Results

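A set of 10 genes was followed that had higher counts after tamoxifen (TAM) in tibialis anterior muscle of both wild-type and Mtm1-/y mice, namely Klk1, Otoa, Lamb3, Cyfip2, Rhpn2, Sept11, Pcx, Twnk, Kmt5a and Gm15337. They are 10 of the 30672 genes in the count table and of the 15533 that passed the filter on low counts, and all 10 passed it. Klk1, with 0 to 1 counts in untreated wild types and 0 to 2 in untreated mutants, passed only through treated mice. It had no result under a stricter filter (minimum count 30). The 10 genes were chosen because of their tamoxifen effect in these same libraries. In the effect of tamoxifen averaged over the genotypes they held ranks 1 to 10 by p, so their rises are described below without a test. Of all genes tested, 0.206% were called in that averaged effect (0.174% higher, 0.0322% lower), namely the 10 genes and 22 others, 17 higher and 5 lower. Just inside the limit stood Sept11, with an averaged log2 fold change of 0.48, and just outside it stood Atf5, with 0.47.

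The tissue came from 15 male 129Pas mice at 7 weeks of age. Mtm1-/y males carry no functional copy of the X-linked gene for myotubularin, a lipid phosphatase of endosomes, and are a mouse model of myotubular (centronuclear) myopathy. There were 4 wild-type mice without treatment (WT) and 4 given tamoxifen (WT + TAM), beside 4 mutants without treatment (Mtm1-/y) and 3 given tamoxifen (Mtm1-/y + TAM). The tamoxifen regimen, the litters and the handling of untreated mice were not given in the sources used here, so the spread between libraries may in part be technical. Whole muscle was sequenced, in which fewer cells of a type and less RNA per cell cannot be told apart.

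Libraries held 18042558 to 45823277 counts, and expression is given as CPM (counts scaled to a common library size) after adjustment by the trimmed mean of M values (TMM). Mtm1 was at 13.5 to 17.7 CPM in the 8 wild-type mice and at 2.91 to 3.71 CPM in the 7 mutant mice. WT + TAM replicate 1 stood apart in marker genes of other fibre and cell types. Its 7 slow fibre markers summed to 1239 CPM, against 55.6 to 100.3 CPM in the other WT + TAM mice, and its 6 fibroblast markers to 3110 CPM, against 704.6 to 1256 CPM. Its 6 endothelial markers summed to 258 CPM, against 428 to 491 CPM. Mtm1-/y replicate 1 also stood apart from its group. Its fibroblast markers summed to 329 CPM, against 800 to 1350 CPM in the other Mtm1-/y mice. Its blood markers summed to 14.9 CPM, against 54.6 to 66.6 CPM. Some marker sums also differed between treated and untreated mice. The 5 B lymphocyte markers summed to 53.3 to 72.4 CPM in WT and only 3.01 to 9.99 CPM in WT + TAM, with 1 of the 2 tested called lower, and to 0.34 to 4.64 CPM in Mtm1-/y and 2.12 to 3.75 CPM in Mtm1-/y + TAM. The 6 blood markers summed to 69.1 to 96.3 CPM in WT and 80.8 to 198 CPM in WT + TAM. Slow fibre markers summed to 89.5 to 123 CPM in Mtm1-/y and 103 to 232 CPM in Mtm1-/y + TAM. In both cases treated and untreated mice overlapped, and 0 markers of either list were called with tamoxifen. The blood overlap came only from WT + TAM replicate 1, without which WT + TAM sums were 125 to 198 CPM. In WT, 5 of 7 slow fibre and 1 of 5 tested blood markers had an unadjusted edgeR p under 0.05, against 11.3% of all genes. In the mutants it was 1 of 7 and 0 of 5. The 4 smooth muscle markers summed to 103 to 142 CPM in Mtm1-/y and 75.0 to 101 CPM in Mtm1-/y + TAM, while the WT groups overlapped. Of these 4, 0 were called, and in the mutants 2 had an unadjusted edgeR p under 0.05, against 5.54% of all genes. The part of these shifts in the values below was not tested. Skeletal muscle markers were abundant in every library, with sums of 134700 to 232500 CPM.

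Tamoxifen is a selective oestrogen receptor modulator. It binds the nuclear oestrogen receptors, which recognise the palindromic oestrogen response element in DNA and act as ligand-dependent transcription factors, and its action as agonist or antagonist differs between tissues. The 10 genes share no single pathway. Klk1, Otoa and Lamb3 encode secreted or extracellular proteins, Cyfip2, Rhpn2 and Sept11 encode regulators or parts of the cytoskeleton, Pcx and Twnk encode mitochondrial enzymes, Kmt5a encodes a chromatin enzyme, and Gm15337 is annotated as an antisense RNA. They lie on 6 chromosomes, with 3 on chromosome 7 and 2 each on chromosomes 5 and 19.

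Promoter sequences were examined because the genes were higher together under a ligand of a DNA-binding receptor. RefSeq windows of 300 bases for build GRCm38.p6, from 250 bases before a start site to 50 after it, were found for 9 of the 10 genes, with 14 windows in all. The 250 bases before the start are shown for the 5 windows in which they overlapped no annotated exon, 5′ to 3′ on the plus strand, which is the coding strand of these genes, with every GGTCA or its reverse complement TGACC in capitals. GGTCA is an arm of the oestrogen response element. Its full palindromic form was searched as GGTCA and TGACC with any 3 bases between them, so that each full element also holds the arm.
Klk1, chr7:44225110-44225359: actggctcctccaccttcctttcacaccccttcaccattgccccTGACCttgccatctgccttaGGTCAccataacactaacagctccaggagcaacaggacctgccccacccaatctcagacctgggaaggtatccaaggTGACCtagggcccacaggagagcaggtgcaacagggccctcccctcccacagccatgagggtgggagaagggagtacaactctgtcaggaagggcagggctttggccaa
Kmt5a, chr5:124439680-124439929: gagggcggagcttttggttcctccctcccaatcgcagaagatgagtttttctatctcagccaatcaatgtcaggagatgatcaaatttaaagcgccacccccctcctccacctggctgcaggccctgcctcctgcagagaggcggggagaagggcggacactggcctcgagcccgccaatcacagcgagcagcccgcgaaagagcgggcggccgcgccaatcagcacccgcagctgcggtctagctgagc
Kmt5a, chr5:124446454-124446703: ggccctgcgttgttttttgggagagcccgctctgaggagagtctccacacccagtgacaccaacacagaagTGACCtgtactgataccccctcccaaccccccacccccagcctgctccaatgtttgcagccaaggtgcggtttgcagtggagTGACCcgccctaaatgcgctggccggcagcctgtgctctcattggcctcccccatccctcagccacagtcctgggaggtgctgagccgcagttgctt
Pcx, chr19:4510222-4510471: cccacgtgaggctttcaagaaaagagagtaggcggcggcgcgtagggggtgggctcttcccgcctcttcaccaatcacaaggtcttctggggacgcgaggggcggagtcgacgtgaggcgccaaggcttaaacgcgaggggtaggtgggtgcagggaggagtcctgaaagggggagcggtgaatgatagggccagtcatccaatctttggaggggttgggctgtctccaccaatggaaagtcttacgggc
Pcx, chr19:4594069-4594318: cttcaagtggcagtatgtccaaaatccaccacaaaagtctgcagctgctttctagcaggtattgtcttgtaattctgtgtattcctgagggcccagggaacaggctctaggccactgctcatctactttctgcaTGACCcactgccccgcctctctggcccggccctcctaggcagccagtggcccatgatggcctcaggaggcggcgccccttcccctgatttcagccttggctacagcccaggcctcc

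Motifs were counted over the whole 300 bases, so the counts also cover 50 bases after each start that are not shown. The full element was in 0 of the 14 windows and in 0.07% of 32851 promoter windows of the same length. Within the 250 bases before the start, the Klk1 window held 3 copies of the arm, at 206, 186 and 109 bases before the start. In the same 250 bases, the second Kmt5a sequence shown held 2 copies and the second Pcx sequence shown 1, whereas the first shown of each held none. A further Kmt5a window, not shown, also held none there. Over all members, the arm was in 7 of 14 windows, from 6 genes, against 40.5% of all windows, so its presence did not set them apart. The GC box GGGCGG, read on both strands like every motif here, was in 8 of 14 windows against 35.7% of all. The E-box CAGCTG, a motif of myogenic factors, was in 6 of 14 windows against 16.3% of all, and TATAAA was in 0 of 14 against 13.6%. TGANTCA, the AP-1 site, was in 1 of 14 windows, of Twnk, against 7.81% of all. The median GC content was 60.8% in the member windows and 52.7% in all windows. These matches describe letters in short windows only.

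Klk1 encodes tissue kallikrein, a serine protease that releases kinins from kininogen. Klk1 had counts of 0, 0, 1 and 1 in the WT mice and of 11, 12, 10 and 18 in the WT + TAM mice. It had 2, 1, 1 and 0 counts in the Mtm1-/y mice and 3, 35 and 11 in the Mtm1-/y + TAM mice. Every treated mouse was above every untreated mouse of its genotype, at levels near the detection limit throughout. Summed over mice and scaled, Klk1 was 28.0 times as high in WT + TAM as in WT (95% interval 7.36 to 237) and 17.7 times as high in Mtm1-/y + TAM as in Mtm1-/y (6.49 to 67.5). These intervals cover counting error only, and in the mutants 35 of the 49 treated counts came from replicate 2.

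Otoa encodes otoancorin, a membrane-anchored protein known from the inner ear, where it links epithelium to the overlying gel. Otoa was at 0.271, 0.356, 0.221 and 0.411 CPM in WT and at 2.66, 4.49, 1.86 and 2.29 CPM in WT + TAM. In the mutants it had 1, 0, 1 and 0 counts untreated and 6, 12 and 6 counts treated. All treated mutants were therefore above all untreated mutants, yet none exceeded the untreated WT range by level, at 0.151 to 0.318 CPM. The summed ratio with tamoxifen was 8.16 in WT (95% interval 5.83 to 11.7) and 17.3 in the mutants (4.30 to 151), the latter from only 2 untreated counts.

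Lamb3 encodes the beta3 chain of laminin-332, a basement membrane protein best known from epithelia. Lamb3 was at 3.12, 2.29, 2.08 and 2.58 CPM in WT and at 3.84, 5.76, 5.04 and 6.10 CPM in WT + TAM. It was at 1.96, 3.15, 1.94 and 2.62 CPM in Mtm1-/y and at 6.25, 7.78 and 8.53 CPM in Mtm1-/y + TAM. The untreated genotypes overlapped fully, and the 3 treated mutants were the highest of the 15 mice. On the log2 scale Lamb3 was higher with tamoxifen by 1.03 (SE 0.199) in WT and 1.65 (SE 0.21) in the mutants. The 7 epithelial and skin markers summed to 2.17 to 2.56 CPM in WT, 2.41 to 2.86 in WT + TAM, 7.47 to 45.6 in Mtm1-/y and 25.1 to 77.7 in Mtm1-/y + TAM. Of the 7, Krt5, Krt14 and Epcam had at most 3 counts in any library. The other 4 were tested in edgeR, with 0 called with tamoxifen in either genotype and 0 at an unadjusted p under 0.05, and their part in the Lamb3 values was not tested.

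Cyfip2 encodes a subunit of the WAVE regulatory complex, which controls branched actin assembly, and also binds the RNA-binding protein FMRP. Cyfip2 was at 1.13, 1.11, 1.11 and 0.675 CPM in WT and at 1.84, 14.3, 7.21 and 6.29 CPM in WT + TAM. It was at 1.23, 2.78, 1.52 and 1.5 CPM in Mtm1-/y and at 18.4, 28.2 and 18.6 CPM in Mtm1-/y + TAM. WT + TAM replicate 1 lay between the untreated mice and its group, and all treated mutants were above all treated wild types. The rise of Cyfip2 was 2.88 (SE 0.49) in WT and 3.65 (SE 0.489) in the mutants on the log2 scale.

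Rhpn2 encodes rhophilin 2, a scaffold protein of the actin cytoskeleton. Rhpn2 was at 1.85, 2.25, 1.77 and 1.88 CPM in WT and at 5.23, 11.6, 9.39 and 14.1 CPM in WT + TAM. It was at 3.27, 3.55, 3.08 and 3.56 CPM in Mtm1-/y and at 5.46, 3.95 and 8.28 CPM in Mtm1-/y + TAM. Untreated mutants were all above untreated WT, and Mtm1-/y + TAM replicate 2 was just above the untreated mutants. For Rhpn2 the log2 rise was 2.38 (SE 0.273) in WT and 0.81 (SE 0.276) in the mutants.

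Sept11 encodes septin 11, a filament-forming GTP-binding protein. Sept11 was at 41.3, 50.9, 52.4 and 56.0 CPM in WT and at 87.5, 87.2, 91.9 and 82.7 CPM in WT + TAM. It was at 69.1, 83.2, 68.0 and 85.9 CPM in Mtm1-/y and at 88.6, 85.8 and 82.2 CPM in Mtm1-/y + TAM. The 7 treated mice of both genotypes thus lay within 82.2 to 91.9 CPM. Its log2 rise was 0.80 (SE 0.103) in WT and 0.16 (SE 0.11) in the mutants, in which treated and untreated values overlapped.

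Pcx encodes pyruvate carboxylase, the mitochondrial enzyme that makes oxaloacetate from pyruvate. Pcx was at 97.9, 80.6, 73.5 and 75.5 CPM in WT and at 225.5, 317, 307 and 216 CPM in WT + TAM. It was at 85.6, 55.1, 60.1 and 54.4 CPM in Mtm1-/y and at 74.3, 71.5 and 101 CPM in Mtm1-/y + TAM. The wild-type groups were far apart, whereas 2 of the 3 treated mutants lay below the highest untreated mutant. Log2 rises of Pcx were 1.70 (SE 0.178) in WT and 0.37 (SE 0.187) in the mutants. Adipocytes also express Pcx, and the 7 adipocyte markers summed to 190.5 to 231 CPM in WT mice and to 187 to 219.9 CPM after tamoxifen. In the mutants the sums were 147 to 214 CPM untreated and 150.4 to 197.5 CPM treated. The median log2 change of the 7 single markers was 1.16 in WT and 1.73 in the mutants, against nearly level sums. In edgeR 0 of the 7 were called in either genotype, with an unadjusted p under 0.05 for 0 in WT and 1 in the mutants, and their part in the Pcx values was not tested.

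Twnk encodes the mitochondrial DNA helicase Twinkle. Twnk was at 33.3, 31.6, 32.4 and 29.7 CPM in WT and at 31.8, 47.8, 47.4 and 49.9 CPM in WT + TAM. It was at 23.2, 26.3, 25.8 and 26.1 CPM in Mtm1-/y and at 39.5, 44.2 and 41.2 CPM in Mtm1-/y + TAM. WT + TAM replicate 1 was the only treated mouse within the untreated range of its genotype for Twnk. With tamoxifen Twnk was higher by a log2 value of 0.48 (SE 0.116) in WT and 0.72 (SE 0.124) in the mutants.

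Kmt5a encodes the methyltransferase that places a single methyl group on lysine 20 of histone H4. Kmt5a was at 78.2, 69.5, 60.1 and 62.8 CPM in WT and at 155, 186, 206 and 132 CPM in WT + TAM. It was at 44.0, 56.7, 52.8 and 51.2 CPM in Mtm1-/y and at 74.9, 71.8 and 77.8 CPM in Mtm1-/y + TAM. The treated mutants lay within the range of the untreated WT mice, below every treated wild type. This gave a log2 rise of 1.33 (SE 0.13) in WT and 0.55 (SE 0.138) in the mutants.

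Gm15337 lies antisense to Arhgap26 and has no assigned function here. Gm15337 was at 1.45, 2.57, 2.57 and 3.23 CPM in WT and at 9.93, 11.6, 8.16 and 7.82 CPM in WT + TAM. It was at 0.0785, 0.807, 0.953 and 1.34 CPM in Mtm1-/y and at 4.77, 5.16 and 5.29 CPM in Mtm1-/y + TAM. The 4 groups did not overlap. The log2 rise was 1.94 (SE 0.408) in WT and 2.66 (SE 0.461) in the mutants. Mtm1-/y replicate 1 had only 3 counts, and over the fits with libraries left out the rise in the mutants was 2.26 to 3.10.

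**Figure D1:**
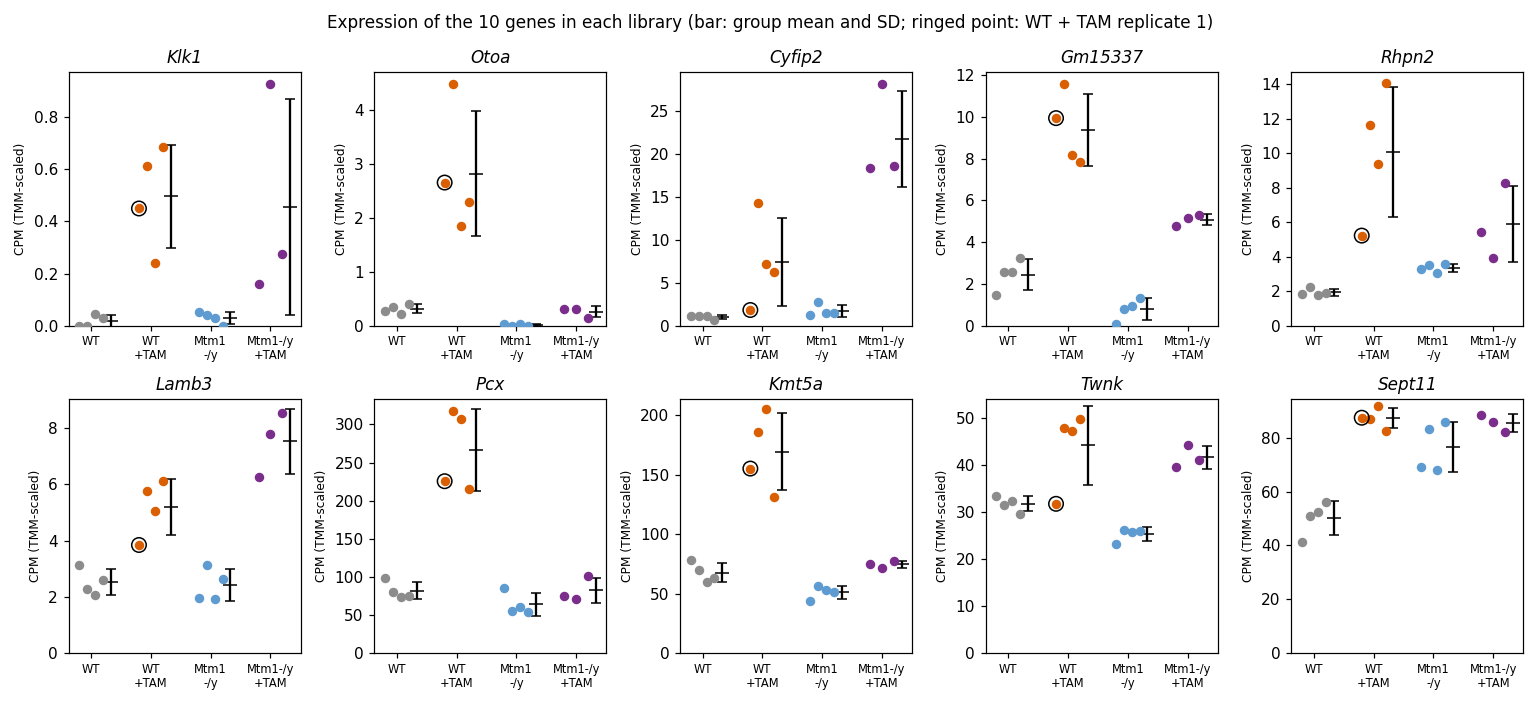
TMM-scaled CPM of each of the 10 genes by group, with a point for each mouse and a bar for the group mean and SD; axes are linear, start at 0 and differ between genes. The ringed WT + TAM replicate 1 sits at the untreated level for Twnk (31.8 CPM) and low for Cyfip2 (1.84 CPM), but among its group for Otoa and Sept11.

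By level per kilobase of exon, the genes fell into 2 ranges. In WT, Pcx (17.2 CPM per kilobase), Kmt5a, Twnk (7.92) and Sept11 were abundant, and the other 6 genes were between 0.0171 (Klk1) and 0.631 (Gm15337) CPM per kilobase. In Mtm1-/y + TAM, Cyfip2 had moved to 3.06 CPM per kilobase, above Gm15337, Lamb3 (1.14) and Rhpn2 (0.935), whereas Otoa was lowest at 0.0311. The largest log2 rises were in the scarce genes, and the 4 abundant genes had log2 rises of 0.16 to 1.70.

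All 4 WT + TAM mice were above all 4 WT mice for 9 of the 10 genes (background 4.22% of genes tested), with Twnk the exception. All 3 Mtm1-/y + TAM mice were above all 4 Mtm1-/y mice for 8 of the 10 (background 3.33%), with Pcx and Sept11 the exceptions. For 7 genes this held in both genotypes (background 0.225%). The genes were chosen on these contrasts, so nothing is read from these counts beyond which genes were exceptions. The name "raised in both genotypes" therefore describes the averaged effect, since Pcx and Sept11 overlapped in the mutants. The median log2 rise over the 10 genes was 1.82 in WT and 1.23 in the mutants, beside 0.00 over all genes tested in each.

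The rise was larger in WT for 5 genes and larger in the mutants for the other 5. The difference between the rises, mutant minus WT on the log2 scale, was -1.57 (SE 0.388) for Rhpn2, -1.33 (SE 0.259) for Pcx, -0.78 (SE 0.19) for Kmt5a and -0.64 (SE 0.15) for Sept11. The log2 rise in the mutants was 34.1% of that in WT for Rhpn2, 21.6% for Pcx and 41.4% for Kmt5a, and was lower still for Sept11. Without Mtm1-/y + TAM replicate 3, however, the log2 rise in the mutants was 0.19 for Pcx and 0.47 for Rhpn2, and without Mtm1-/y replicate 3 it was 0.10 for Sept11. Over the fits with libraries left out, this rise reached 0.54 for Pcx, 1.04 for Rhpn2 and 0.22 for Sept11. Larger log2 rises in the mutants were seen for Cyfip2 (difference 0.78, SE 0.68), Gm15337 (0.73, SE 0.608), Otoa (0.69, SE 0.684), Lamb3 (0.62, SE 0.288) and Twnk (0.24, SE 0.17). In edgeR, 0 of all genes tested were called for this difference, and the smallest adjusted p among the 10 was 0.248, for Pcx. At an unadjusted p under 0.05, 10.6% of all genes and 5 of the 10 passed. The genes were chosen on the effects compared here, and a small spread between mice favours a low p in both steps. Nothing is therefore read from that count. With DESeq2, 74 genes were called, among them Rhpn2, Pcx, Kmt5a and Sept11, and edgeR called 7 genes without WT + TAM replicate 1, 3 without Mtm1-/y replicate 4, 2 without a filter on low counts, and 14, Rhpn2 among them, when the first replicates of WT + TAM and of Mtm1-/y were both left out. Whether these rises differed between genotypes thus depended on the test and on the libraries.

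**Figure D2:**
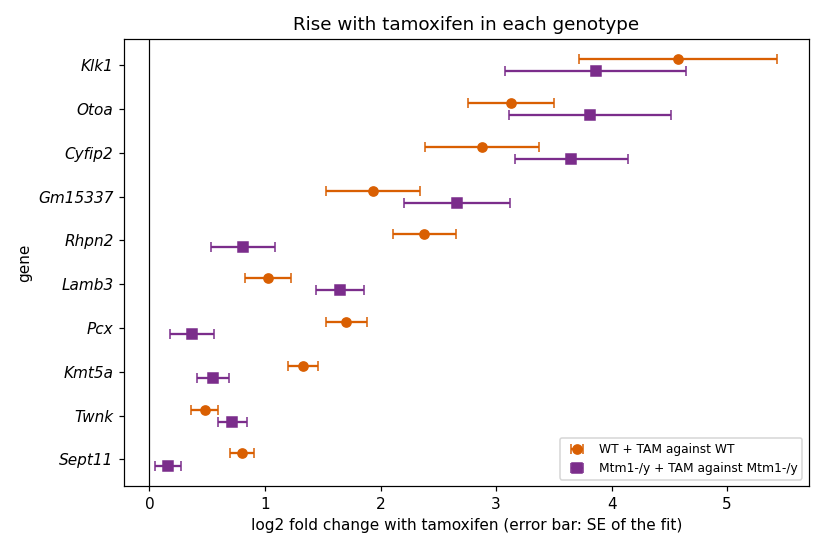
Log2 fold change with tamoxifen in WT (circles) and Mtm1-/y (squares) for each gene, with the SE of the edgeR fit. Rhpn2, Pcx, Kmt5a and Sept11 have smaller values in the mutants (0.81, 0.37, 0.55 and 0.16) than in WT (2.38, 1.70, 1.33 and 0.80).

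The genotype contrasts were not the ones by which the genes were ranked, but they came from the same libraries, and a small spread between mice favours a low p in both. The share of members called is therefore given beside the background without a reading. Between untreated Mtm1-/y and WT mice, 6 of the 10 genes were called, against 30.4% of all genes tested. Of the 6, 4 were lower in the mutants (14.9% of all genes) and 2 were higher (15.5%). Otoa was lower by -4.12 on the log2 scale (SE 0.649, edgeR adjusted p = 0.000337) and Gm15337 by -1.60 (SE 0.446, adjusted p = 0.0147). Sept11 was higher by 0.61 (SE 0.102, adjusted p = 0.000527). These 3 calls held whichever of the 15 libraries was left out. Without Mtm1-/y replicate 1, the Gm15337 difference was -1.20. Kmt5a (-0.40, adjusted p = 0.0272), Twnk (-0.33, adjusted p = 0.0432) and Rhpn2 (0.80, adjusted p = 0.0361) were also called, but less firmly. The Kmt5a call was lost without WT replicate 1 or 2 or Mtm1-/y replicate 1 or 4 (adjusted p up to 0.0896). Rhpn2 lost its call with limma-voom and without any WT mouse except replicate 2 or any Mtm1-/y mouse except replicate 3, with adjusted p up to 0.108. Twnk lost its call without any of the 8 untreated mice or any Mtm1-/y + TAM mouse, and with relative log expression scaling (adjusted p up to 0.0975). Without a filter on low counts, Gm15337 and Twnk were not called. The other 4 genes were not called, and their 95% intervals were widest for Klk1 (-2.03 to 3.42) and narrowest for Pcx (-0.74 to 0.02) and Lamb3 (-0.52 to 0.37).

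Under tamoxifen, 4 of the 10 genes were called between the genotypes, against 20.1% of all genes tested. Of the 4, 3 were lower in the mutants (9.46% of all genes) and 1 was higher (10.6%). Otoa stayed lower in the mutants, by -3.44 (SE 0.429, edgeR adjusted p = 8.81e-05). Pcx was lower by -1.69 (SE 0.198, adjusted p = 5.4e-05) and Kmt5a by -1.18 (SE 0.143, adjusted p = 6.98e-05). These 3 calls held without any single library. Cyfip2 was higher in the treated mutants by 1.56 (SE 0.45, adjusted p = 0.0263), a call lost without any 1 of 3 treated mice (WT + TAM replicates 3 and 4, Mtm1-/y + TAM replicate 2), where its adjusted p reached 0.111, and without a filter on low counts. Rhpn2 (-0.77, SE 0.277) and Lamb3 (0.54, SE 0.206) did not pass, with adjusted p of 0.0614 and 0.0746 in edgeR. Both were called by DESeq2, Lamb3 also by limma-voom (adjusted p = 0.0297), and Rhpn2 also without WT + TAM replicate 1 or Mtm1-/y + TAM replicate 3. Without Mtm1-/y replicate 1, Gm15337 was called under tamoxifen and Pcx between the untreated genotypes, with adjusted p of 0.0103 and 0.0205. For Sept11 and Twnk, the 95% intervals of the genotype difference under tamoxifen were -0.27 to 0.21 and -0.36 to 0.19.

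**Figure D3:**
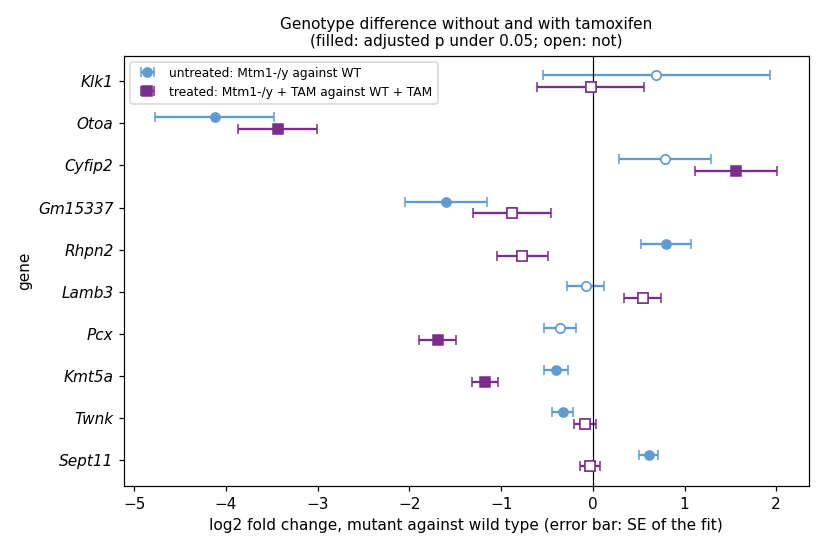
Log2 fold change of mutant against wild type for each gene, untreated (circles) and under tamoxifen (squares), with the SE of the edgeR fit; filled symbols have an adjusted p under 0.05. Otoa is filled on the left in both states (-4.12 and -3.44), whereas Pcx is filled only under tamoxifen (-1.69).

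In WT + TAM replicate 1, a library that stood apart in marker genes, the 10 genes did not behave alike. Taken against the mean log2 rise of the other 3 WT + TAM mice, its rise was 107% for Gm15337, 101% for Sept11, 99.7% for Otoa, 97.7% for Klk1, 89.5% for Kmt5a and 83.5% for Pcx. For the other 4 genes it was 55.5% for Rhpn2, 53.1% for Lamb3, 28.1% for Cyfip2 and 0.143% for Twnk. For these 4 genes it was the lowest mouse of its group. Its median log2 rise over the 10 genes was 1.31, below the 1.55 to 2.11 of the other 3. Other treated mice also had low values for single genes, such as 23.1% for Rhpn2 in Mtm1-/y + TAM replicate 2. The part of its slow fibre and fibroblast marker levels in these values was not tested. Leaving the mouse out raised the number of genes called in the averaged tamoxifen effect from 32 to 71.

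**Figure D4:**
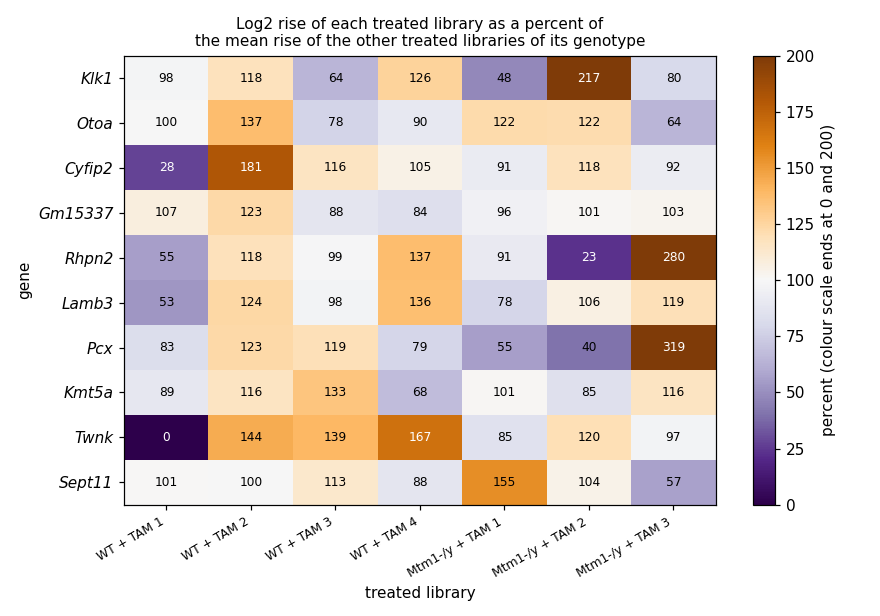
Log2 rise of each treated mouse over the untreated mean of its genotype, as a percent of the mean rise of the other treated mice of that genotype (a column for each mouse and a line for each gene). WT + TAM replicate 1 has 0.143% for Twnk and 28.1% for Cyfip2 but 107% for Gm15337.

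Co-variation was examined over the 7 treated mice after removal of each group mean, so that the rise itself and the genotype difference did not enter. Of the 45 pairs, 28 had a positive Pearson r, with a median of 0.18 and a range of -0.585 to 0.881. The median over all pairs of tested genes was 0.00. Exact permutation within groups (two-sided, smallest possible p = 0.00694) gave an unadjusted p under 0.05 for 2 pairs and an adjusted p under 0.05 for 0 pairs, the smallest being 0.781. In the 8 untreated mice 23 of the 45 pairs were positive and the median r was 0.0529, also with 0 pairs past the adjusted threshold. With 45 pairs, a single pair could not reach an adjusted p below 0.312 in the treated or 0.0781 in the untreated mice, so these counts of 0 were nearly set by the design and leave co-variation of single pairs undecided.

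The highest values were among the genes that were low in WT + TAM replicate 1. Cyfip2 and Twnk had r = 0.881 (Spearman coefficient 0.75, exact permutation p = 0.0764, adjusted p = 0.82), which was 0.226 without that mouse. Lamb3 and Twnk had r = 0.849 (Spearman coefficient 0.75, exact permutation p = 0.0347, adjusted p = 0.781). This fell to 0.111 without the 2 mice farthest from the median of Lamb3, and was 0.625 without WT + TAM replicate 1. Pcx and Kmt5a formed the other pair, with r = 0.813 (Spearman coefficient 0.857, exact permutation p = 0.0347, adjusted p = 0.781). Their r was 0.94 without the 2 mice farthest from the median of Pcx and 0.804 without WT + TAM replicate 1, so its size was similar without that mouse. In the untreated mice, Pcx and Kmt5a had r = -0.147. Without WT + TAM replicate 1 the median over the 45 pairs was 0.124. Pairs with r over 0.5 numbered 9 with that mouse and 11 without it, since other pairs rose, such as Klk1 and Twnk from 0.249 to 0.924. In the untreated mice 7 pairs had r over 0.5. The share over all gene pairs was not determined, so no co-variation is read from these counts. Without WT + TAM replicate 1, 0 pairs passed the adjusted threshold, which a single pair could not reach with 6 mice.

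**Figure D5:**
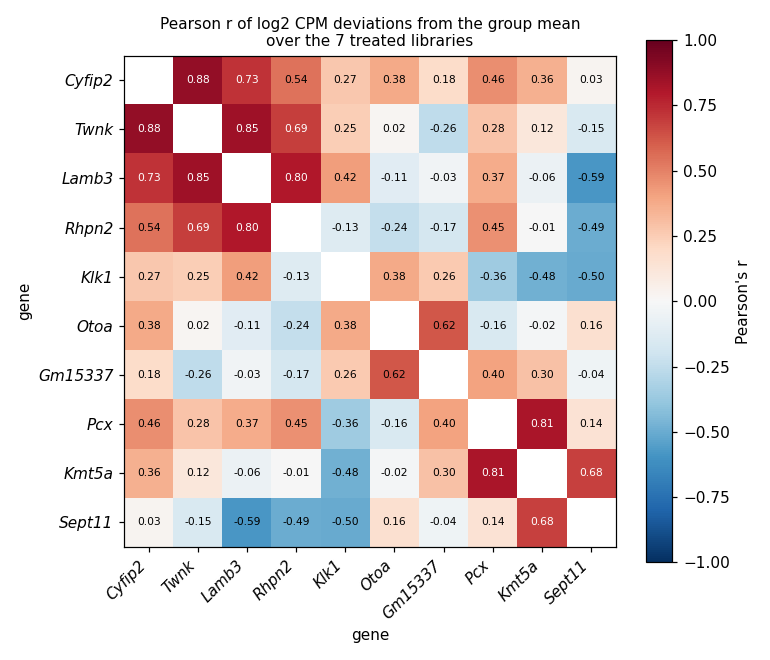
Pearson's r between each pair of the 10 genes over the 7 treated mice, from log2 CPM deviations from the group mean. Cyfip2, Twnk, Lamb3 and Rhpn2 have positive values with each other (highest 0.881), Pcx and Kmt5a have 0.813, and the lowest value is -0.585 for Lamb3 and Sept11.

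Reads that could belong to other genes were examined by position and sequence. Of 15 tested neighbours within 100 kilobases, the one called in WT was Gm43682, which starts 523 bases beyond Sept11 on the same strand, with a log2 rise of 0.94 (SE 0.15, edgeR adjusted p = 0.0148). Exons of Gm15337 share 221 bases with Arhgap26, those of Rhpn2 138 bases with Faap24 and those of Twnk 507 bases with Mrpl43, each on the opposite strand. The strand setting of the counting was not given, so such reads cannot be assigned with certainty. None of the 3 partners was called with tamoxifen, and Mrpl43 had log2 changes of 0.14 in both genotypes. Of the Klk1 transcript, 24.0% of 1072 windows of 50 bases also occur in another gene, mostly of the Klk1b family. Klk1b5, which shares the most (15.9%), had 1 count in all libraries together, and Klk1b22, the most abundant of the family with 9497 counts, shares 0.0933%. The Klk1 counts are uncertain to this extent.

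Genes that work with the 10 were compared in 11 pathway lists with 154 genes, of which 115 were tested. With tamoxifen in WT, 1 of the 115 was called in edgeR, against 0.309% of all genes (higher 0.18%), and 15 had an unadjusted p under 0.05, against 11.3% of all genes. This was Xbp1, a transcription factor of the unfolded protein response and an oestrogen response gene in breast cells, with means of 46.1 CPM untreated and 81.9 CPM treated in wild-type mice. Its log2 change was 0.83 (SE 0.149, edgeR adjusted p = 0.0296) in WT and 0.22 (SE 0.158, adjusted p = 0.877) in the mutants. The call was lost whenever an untreated WT mouse or any WT + TAM mouse other than replicate 1 was left out. In the mutants 0 of the 115 were called by edgeR or DESeq2, against 0.0129% of all genes, and 9 had an unadjusted p under 0.05, against 5.54%. DESeq2 called 4 of the listed genes in WT, namely Xbp1, Abi2, Wnt4 and Fbp2.

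In edgeR the lists of genes related to the 10 by family or pathway had 0 calls. Of the 13 other genes of the WAVE complex list, which encode Cyfip1, other subunits or the activator Rac, 0 were called. Brk1, the most abundant of them per length, changed by -0.19 in WT and 0.23 in the mutants. Of the 16 tested laminin and hemidesmosome genes 0 were called, and Itgb1, an integrin chain that binds laminins, changed by -0.01 in WT. Among the 20 genes of pyruvate handling, with 0 called, Mdh2 (malate dehydrogenase) changed by -0.14 in WT and 0.23 in the mutants. Tfam, which packages mitochondrial DNA, changed by 0.18 and 0.23, and 0 of the 15 genes of its list were called. Lists of septins (10 tested, Sept7 -0.07 in WT), kallikreins (6 tested, Klk1b22 0.02), H4 lysine 20 methylation (5 tested, Hcfc1 0.19), otoancorin-related proteins (4 tested, Msln 0.44) and the FMRP family (3 tested, Fxr1 0.08) also had 0 called in either genotype. Msln had only 2 to 15 counts in the mice of each wild-type group (SE 0.702), and changed by -0.13 (SE 0.445) in the mutants. Median log2 changes of the lists lay between -0.12 and 0.28 in WT. Of the oestrogen receptors, Esr1 changed by 0.00 in WT (SE 0.139) and 0.06 in the mutants (SE 0.151). Pgr, the progesterone receptor and a classical oestrogen target named here after its values were seen, was below the filter, with 0 to 2 counts in WT, 5 to 17 in WT + TAM, 0 in Mtm1-/y and 0 to 7 in Mtm1-/y + TAM. Over the 13 tested oestrogen receptor and response genes, the median log2 change was 0.00 in WT and 0.06 in the mutants. In WT their changes ran from -1.12 (Myc, not called and also named after its values were seen) to 0.83 (Xbp1).

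Other genes were compared with the mean standardised profile of the 10 over the 15 libraries if their mean log2 CPM was at least 1. Klk1 and Otoa were themselves below this level. The most similar in log2 CPM were AC109619.1 (r = 0.924), Flrt1 (r = 0.896), Agap1 (r = 0.885), Hal (r = 0.853) and Exoc2 (r = 0.852). These r values include the group differences on which the genes were chosen. Flrt1 rose from a mean of 0.824 to 90.3 CPM in WT (log2 6.75, SE 1.19), and its close neighbour AC109619.1 from 0.194 to 26.0 CPM. Agap1, by contrast, had mean levels of 26.0 CPM untreated and 32.2 CPM treated in wild type. These changes are described without a test, because the genes were picked for likeness to a profile that holds the tamoxifen effect.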

How the data were processed

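Polyadenylated RNA of tibialis anterior muscle had been sequenced from TruSeq stranded libraries, with a library for each mouse. The authors deposited a table of raw read counts per Ensembl gene, without normalization. The submitters' processing notes list cutadapt 1.10, Bowtie2 2.2.8, STAR 2.5.3a and HTSeq 0.6.1p1 with builds mm10 and GRCm38. Roles of the tools and the strand setting were not given in the sources used here. GENCODE M21 symbols matched all 30672 genes. Counts were fitted in edgeR 4.0.16 (R 4.3.3) with TMM factors, filterByExpr (minimum count 10), 4 group means and quasi-likelihood F-tests over all 15 libraries (common biological variation 20.8%, 11 residual degrees of freedom). Called means a Benjamini-Hochberg adjusted p under 0.05 over all 15533 genes tested. Log2 CPM used a prior count of 2. No libraries of a group agreed within sampling noise. The fits were tested on simulated counts. DESeq2 1.42.0 and limma-voom (limma 3.58.1) were alternatives, as were other scalings and filters, a replicate block and fits without single libraries. Named genes were the 10 members, called list genes or else the most abundant of a list, neighbours within 100 kilobases, exon-sharing genes and the 5 most similar profiles. The members, lists and tests were chosen with earlier results of these data known. The result of 1 of the pathway lists is not reported here.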

Additional observations from a re-analysis of the deposited data

Results flagged for a closer look

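Of the values, 3 stood far from their group by Dixon's test of the gap to the nearest mouse, which was applied to the 10 genes in the 3 groups of 4 mice. Cyfip2 was at 0.675 CPM in WT replicate 4, with a gap of 0.943 of the group's range. Twnk was at 31.8 CPM in WT + TAM replicate 1 (0.861 of the range) and at 23.2 CPM in Mtm1-/y replicate 1 (0.844 of the range). Chance marks about 1 in 20 groups, and 30 groups were tested. WT + TAM replicate 1 also stood apart in slow fibre and fibroblast markers, whose part in its Twnk level was not tested.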

How the results depend on the processing

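The number of members called between untreated genotypes was 6, and 3 to 6 when a library was left out, with 3 without WT replicate 1 or Mtm1-/y replicate 4. Under tamoxifen it was 4, and 3 to 5 when a library was left out. With WT + TAM replicate 1 and Mtm1-/y replicate 1 both left out it was 7 under tamoxifen, listed genes called in WT were 4 and genes called in the averaged effect were 128. Listed genes called in WT were 1, with 0 to 2 when a library was left out and 4 with DESeq2. The averaged effect gave 32 genes, 119 with DESeq2, and 10 to 71 when a library was left out, the highest without WT + TAM replicate 1 and the lowest without Mtm1-/y + TAM replicate 3. The median r of member pairs, 0.18, was 0.0278 to 0.285 when a treated library was left out. Lamb3 between untreated genotypes, at -0.08, ranged from -0.217 to 0.0493 when a library was left out, being above 0 without WT replicate 1, Mtm1-/y replicate 1 or Mtm1-/y replicate 3, and was 0.006719 with both named libraries left out. Klk1 between treated genotypes, at -0.02, ranged from -1.07 (without Mtm1-/y + TAM replicate 2) to 0.30, being above 0 without WT + TAM replicates 2 and 4 and Mtm1-/y + TAM replicates 1 and 3. Neither gene was called in any of these fits, and the cause was not tested. Deviations of replicates with the same number had r of -0.113 to 0.306, highest for replicate 2 of Mtm1-/y and Mtm1-/y + TAM. Such values do not settle whether samples were paired. With a replicate block the counts were 6 and 4 members, 1 and 0 listed genes and 28 genes in the averaged effect. Upper-quartile scaling split the genes called between untreated genotypes into 2081 higher and 2721 lower, against 2407 and 2320. With 3 or 4 mice a group, changes in Klk1 and mutant Otoa rest on few counts.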
